A study of Mus musculus with 13 samples.

Results

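Bound CTCF and cohesin were examined at 8 genes of the Hedgehog response in the limb: Ptch1, Hhip, Smo, Sufu, Gli1, Gli2, Gli3 and Hand2. They were chosen by name, with earlier results of these data known, as 8 of the 21911 protein-coding genes annotated in GENCODE release M21. Each was taken as its gene body with 100 kb added on both sides. These windows covered 2377 kb (mm10, as all coordinates here) and held 59 of the 39477 consensus CTCF sites of the genome. A consensus site was a wild-type whole-limb CTCF peak that overlapped, by at least 1 bp, a CTCF peak of wild-type distal forelimb and one of wild-type proximal forelimb.

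The series measured chromatin binding by ChIP-seq in limbs of mouse embryos collected at E12.5, in a study of a chromatin domain boundary at the HoxD gene cluster. Wild-type CD1 embryos gave CTCF lists of distal and of proximal forelimb, and RAD21 and SMC1 lists of distal forelimb. Pooled whole forelimbs and hindlimbs of wild-type B6CBAF1 embryos gave a CTCF and a RAD21 list. CTCF was also profiled in embryos homozygous for 1 of 4 HoxD alleles: del(1-13)d9lac, del(8-13)d11lac, del(attP-Rel5)d9lac and del(8-13)rXII. The last allele was profiled for RAD21 as well, in a library sequenced in 2 runs. Going by the names, the alleles remove stretches of HoxD, and d9lac and d11lac stand for lac reporters at the locus. Fixation was longer for SMC1 than for CTCF per the labels, and the time used for each RAD21 library is not given there. The CTCF library of del(8-13)rXII came from forelimbs alone and was prepared by ChIPmentation, which tags immunoprecipitated chromatin with a transposase, so genotype, tissue and assay cannot be told apart there. HoxD lies on chromosome 2 and none of the 8 genes does. Each of the 11 groups had 1 library, so no difference between lists has a replicate check and no p-value is given. The lists held from 15927 peaks (RAD21, del(8-13)rXII) to 73682 peaks (CTCF, proximal forelimb). Read depth is unknown, and a missing peak means only that none was called. Whether the tissue is limb cannot be checked from these lists, since a CTCF or cohesin peak is not a measure of expression.

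Hedgehog signalling in the limb bud starts from Sonic hedgehog, secreted by posterior mesenchyme. Without ligand, the receptor Ptch1 keeps the membrane protein Smo inactive, Sufu holds the Gli transcription factors, and Gli3 is processed to a repressor. Ligand relieves this block, and the response switches on Gli1, Ptch1 and Hhip themselves. CTCF binds DNA at a motif with a direction. Cohesin, which contains RAD21 and SMC1, forms loops by reeling in chromatin until it meets bound CTCF.

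The 8 windows differed widely in the number of peaks they held. In the wild-type whole-limb CTCF list, peak counts ran from 1 around Hhip to 18 around Sufu, with 62 in all. The distal and proximal forelimb lists held 96 and 107 peaks in the windows. The alleles held 103 (del(8-13)d11lac), 67 (del(1-13)d9lac), 60 (del(attP-Rel5)d9lac) and 59 (del(8-13)rXII). RAD21 peaks numbered 44 in whole limb, 25 in distal forelimb and 26 in del(8-13)rXII, and SMC1 peaks 41. Each of the 7 CTCF lists had at least 1 peak in each window. No RAD21 peak of distal forelimb was called around Ptch1, Hhip or Hand2, none of del(8-13)rXII around Ptch1 or Hhip, and no SMC1 peak around Ptch1. These lists are shorter than that of whole-limb RAD21. The share of all protein-coding gene windows without such a peak was not counted, so whether these absences are unusual is not known.

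**Figure D1:**
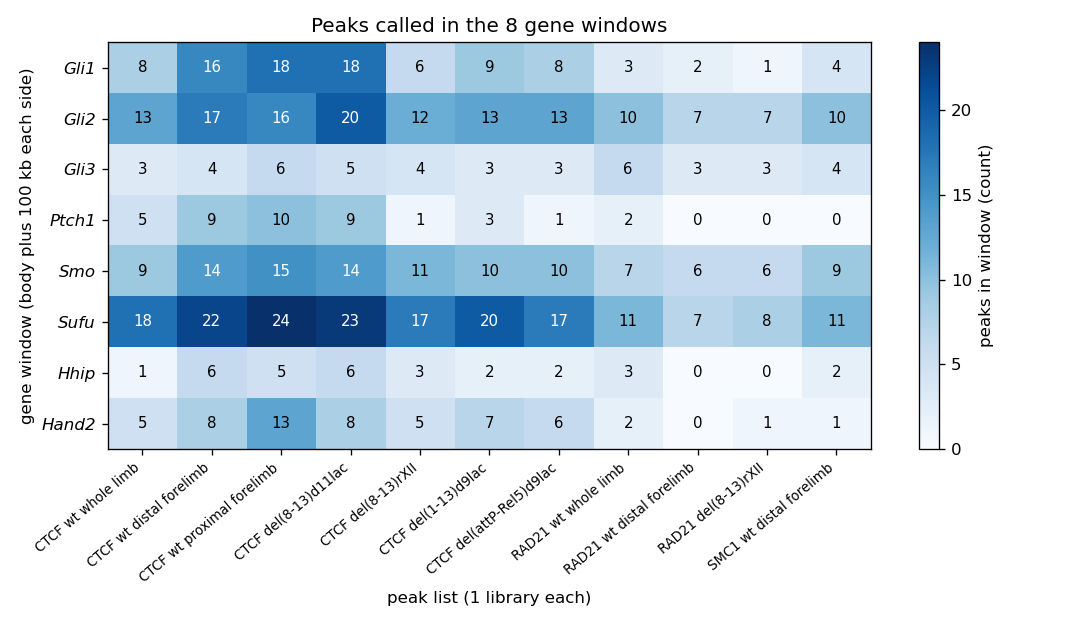
Number of peaks called in each of the 8 gene windows (rows, gene body plus 100 kb on each side) in each of the 11 peak lists (columns, 1 library each), with the colour scale giving the count. Sufu has the highest count in each CTCF list and from 7 to 11 cohesin peaks, while Ptch1 has from 1 to 10 CTCF peaks and cohesin peaks in 1 list only.

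Per 100 kb of window, Sufu had 6.17 consensus CTCF sites, Smo 3.98, Gli1 3.77, Gli2 3.10, Hand2 1.96, Ptch1 1.13, Gli3 0.643 and Hhip 0.342. Among all protein-coding genes taken the same way the median was 2.49, with quartiles of 1.37 and 3.94, and the median of the 8 genes was 2.53. Sufu stood at percentile 94.95 of all genes, and Ptch1, Gli3 and Hhip at percentiles 21.5, 14.1 and 8.58. Whole-limb RAD21 peaks stood at 3.77 per 100 kb around Sufu, 3.10 around Smo and 2.38 around Gli2, against a median of 1.85 over all genes. Gli1, above the median in consensus CTCF sites, was below it in RAD21 peaks, at 1.41. Around Gli3 there were 1.29 RAD21 peaks per 100 kb, around Hhip 1.03, around Hand2 0.982 and around Ptch1 0.754. Sufu and Gli1 have 10 and 9 other protein-coding genes in their windows, Smo has Tspan33 and Ahcyl2, Ptch1 has Fancc, and Gli2, Gli3, Hhip and Hand2 have none.

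**Figure D2:**
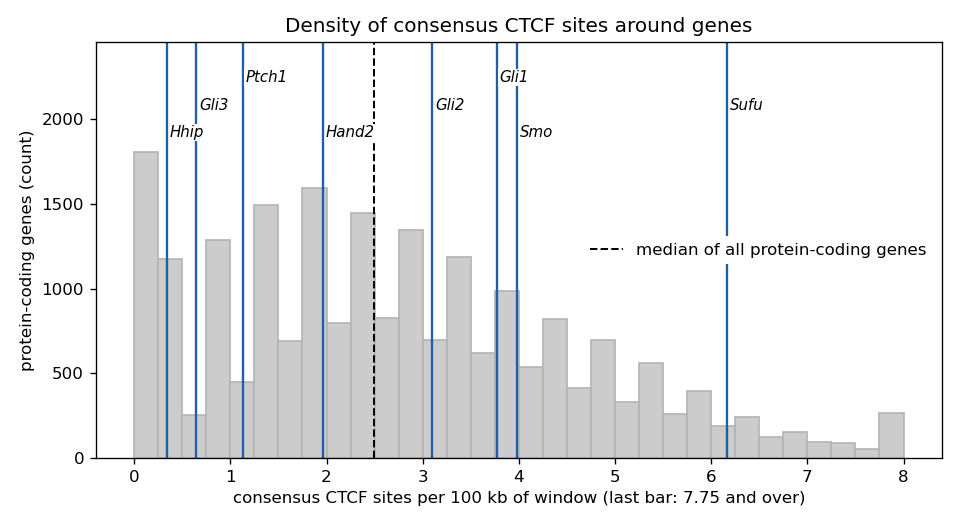
Consensus CTCF sites per 100 kb of window for the 21911 protein-coding genes (grey bars, number of genes on the vertical axis; the last bar takes in all higher values), with the 8 genes as blue lines. Hhip (0.342), Gli3 (0.643), Ptch1 (1.13) and Hand2 (1.96) lie below the median of 2.49 (dashed), and Gli2, Gli1, Smo and Sufu above it.

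Ptch1, the Hedgehog receptor and a direct target of the pathway, had a body of 65.3 kb (chr13:63508328-63573598, minus strand, 22 introns) with weak CTCF peaks and 1 cohesin peak. Merging all lists gave 18 places with a peak in its window. Of these, 10 were in 1 list only, none was in all 11, 16 had CTCF in some list and 2 had cohesin in some list. The body itself held 2 CTCF peaks in whole limb, 4 in distal forelimb, 2 in proximal forelimb, 4 in del(8-13)d11lac and 1 in del(1-13)d9lac. It held none in del(8-13)rXII or del(attP-Rel5)d9lac. Among the 1549 protein-coding genes with a body length within 20% of that of Ptch1, the median number of consensus sites in the body was 1, as in Ptch1. The median number of whole-limb RAD21 peaks in the body was also 1, as in Ptch1. Among the genes with the most similar body counts over the 11 lists were Fez1, Chat and Rad54b, with summed absolute differences of 3, 4 and 4 peaks. In all 4 genes had a difference of at most 4, so 1 more tied with Chat and Rad54b.

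The single consensus site inside Ptch1 lay in intron 2, at chr13:63551604-63551793, 21.9 kb downstream of the annotated start. The authors' −log10 q there was 2.88 in whole limb, 5.03 in distal and 6.41 in proximal forelimb, and 6.70 in del(8-13)d11lac. The other 3 alleles and the 4 cohesin lists had no peak. Ranked within the whole-limb list the site stood at percentile 6.23, so it was among the weakest peaks called, and no CTCF motif passed the score threshold within 50 bp of its summit. The −log10 q depends on the depth of each library, and for this reason strengths are compared between sites of 1 list and not between lists. A percentile gives the rank within its own list, and the lists differ in length.

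The other Ptch1 intron peaks were each in at most 4 of the 11 lists, as was that of intron 2. A peak in intron 18 (chr13:63521058-63521374) was called in whole limb alone, at 5.64, and one in intron 15 (chr13:63528128-63528361) in distal forelimb alone, at 5.00. A peak in intron 1 (chr13:63563855-63564119) was called in del(8-13)d11lac alone, at 5.45. Near the start of the principal transcript, which lies 7.86 kb inside the outermost annotated start, a CTCF peak was found 743 to 777 bp upstream (chr13:63566313-63566710). It was at 10.0 in distal forelimb, 7.02 in proximal forelimb, 6.26 in del(8-13)d11lac and 4.12 in del(1-13)d9lac, and was not called in whole limb. The outermost start had its own peak in whole limb (3.18), distal forelimb (6.89) and del(8-13)d11lac (5.24). Cohesin inside Ptch1 was limited to a whole-limb RAD21 peak at chr13:63568022-63568219, with a −log10 q of 1.58. The other cohesin peak of the window, also of whole-limb RAD21, was at 1.90 in an intron of Fancc (chr13:63431662-63431896).

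The other pair of consensus sites in the window lay downstream of Ptch1, and both had a motif. They are shown because their motifs, in capitals, and the 5 bases that follow are the same word on opposite strands. Each sequence is 29 bases, read 5′ to 3′ on the motif's strand, from the GRCm38.p6 reference.
Ptch1 3′ end, plus strand: agtagAGGCCAGAAGAGGGCATCAgatcc
Fancc intron, minus strand: gaaggAGGCCAGAAGAGGGCATCAgatcc
The first site, at chr13:63507916-63508164, ended 0.164 kb past the 3′ end of Ptch1. Its −log10 q was 8.73 in whole limb, 15.7 in distal and 18.9 in proximal forelimb, 16.9 in del(8-13)d11lac, 3.15 in del(8-13)rXII and 6.59 in del(1-13)d9lac, with no peak in del(attP-Rel5)d9lac. The second, at chr13:63432775-63433059 in an intron of Fancc, had 8.20, 33.4 and 38.0 in the 3 wild-type lists in the same order, 25.7 in del(8-13)d11lac and 23.9 in del(attP-Rel5)d9lac, with no peak in the other alleles. No cohesin peak overlapped either site. All 19 motif bases of both sites are marked as repeat in the reference.

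**Figure D3:**
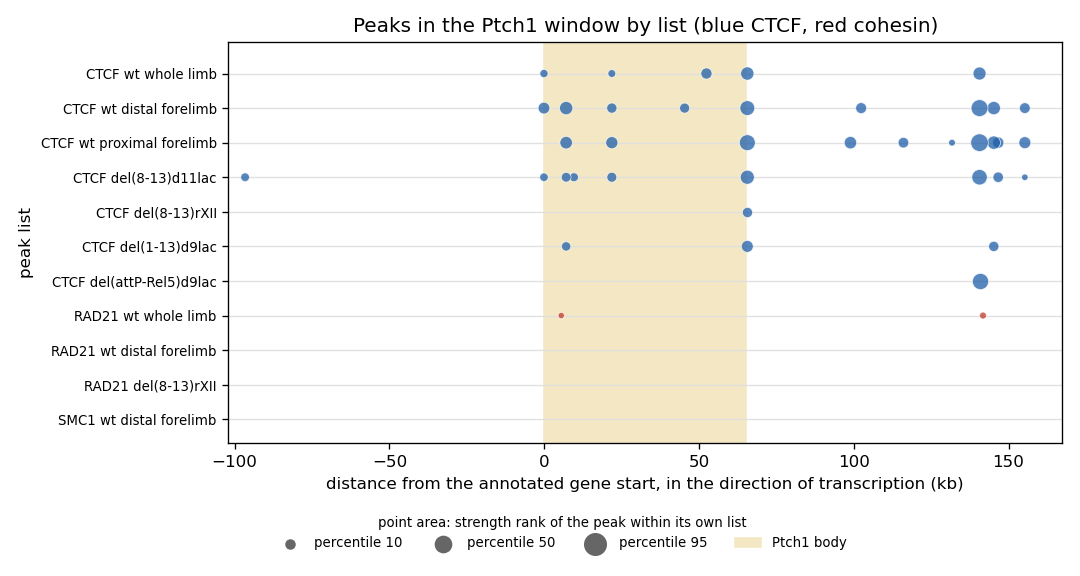
Peaks of the Ptch1 window by list (rows), placed by the distance of the summit from the annotated gene start in kb, in the direction of transcription; the shaded band is the gene body and point area gives the percentile of the peak within its own list. CTCF peaks (blue) recur 65.6 and 141 kb downstream of the start, and cohesin (red) appears as 2 small points in the whole-limb RAD21 list.

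Hhip, which encodes a membrane protein that binds and sequesters Hedgehog ligands, had the fewest consensus CTCF sites per 100 kb of the 8 genes. Its body covered 92.2 kb (chr8:79965851-80058006, minus strand) and its 1 consensus site lay in a UTR, 369 bp downstream of the start (chr8:80057548-80057737). CTCF there was at 5.17 in whole limb, 18.4 in distal and 8.96 in proximal forelimb, 12.49 in del(8-13)d11lac and 8.52 in del(1-13)d9lac. A separate weak CTCF peak of del(attP-Rel5)d9lac, at 4.36, lay at the start, and del(8-13)rXII had none. Whole-limb RAD21 overlapped the site at 9.47 and SMC1 at 1.86. No motif passed the threshold. A further CTCF peak in intron 4 (chr8:80021022-80021465) was in distal forelimb (6.25), proximal forelimb (11.02) and del(8-13)d11lac (15.3) and in no other list.

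The nearest consensus sites outside Hhip were 231 kb beyond its 3′ end and 412 kb upstream of its start. The 412 kb stretch without a consensus site, from the start site to the next site upstream, was matched or exceeded by 846 of the 39456 gaps between neighbouring consensus sites of the genome, 2.14%, where the median gap was 26.1 kb. The start of Ptch1 lay in a gap of 145 kb, which 10.0% of gaps matched or exceeded. These are shares of the number of gaps. Long gaps cover more of the genome, so a position of the genome falls in such a gap more often than these shares.

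Smo, the membrane protein that carries the signal inward once Ptch1 is bound, had 9 consensus sites, and all 9 had a peak in each of the 7 CTCF lists, where 72.5% of all consensus sites of the genome did. Of these, 7 had whole-limb RAD21 (genome 55.9%), 8 had SMC1 (genome 52.4%) and 6 had a peak in all 4 cohesin lists (genome 30.8%). With so few sites per window, nothing is read from such counts for a single gene. The strongest in whole-limb CTCF were at chr6:29649633-29650178 (82.4, intergenic), chr6:29853205-29853615 (74.1, an intron of Ahcyl2) and chr6:29712039-29712536 (60.7, an intron of Tspan33). No list had a peak within 1 kb of the Smo start.

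The consensus site nearest to the Smo start lay in intron 1, 13.0 kb downstream (chr6:29747775-29749032), and was 1258 bp wide with 3 summits, where the median consensus peak of the genome was 325 bp wide. Its cohesin ranks were high, at percentile 92.8 in whole-limb RAD21, 93.7 in distal RAD21, 97.0 in del(8-13)rXII RAD21 and 97.5 in SMC1. For CTCF it stood at percentile 74.9 in whole limb, 74.5 in distal and 74.1 in proximal forelimb. Among the alleles it stood at 57.2 in del(8-13)d11lac, 70.2 in del(1-13)d9lac, 53.0 in del(attP-Rel5)d9lac and 97.5 in del(8-13)rXII. It was the only consensus site of the 8 windows over 1000 bp wide, of 15 in the genome. No CTCF motif passed the threshold within 50 bp of its strongest summit, and the rest of this wide peak was not searched at that setting. Its sequence is a tandem repeat, of which 29 bases at the summit are shown with copies of TGCTG in capitals (plus strand).
Smo intron 1 summit: tgtctgTGCTGTGCTGTGCTGtctttgct
The word TGCTG began at 173 positions of the 1258 bases, only 2 bases were A on this strand, and the reference marked 99.7% of the peak as repeat. How reads that map to more than 1 place were treated is not given in the sources used here, and the part of the repeat in these values was not tested. Without this site 8 consensus sites were left around Smo, 5 of them with all 4 cohesin lists.

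Sufu, the negative regulator that holds Gli proteins in the cytoplasm, had 18 consensus sites, 5 of them touching its body of 91.9 kb. Of the 18, 15 had a peak in each CTCF list, 11 had whole-limb RAD21 and 11 had SMC1. The site at its start (chr19:46396559-46397106, summit 136 bp upstream) had a −log10 q of 60.5 in whole limb, 200.2 in distal and 194.0 in proximal forelimb. In the alleles it had 162 (del(8-13)d11lac), 73.8 (del(1-13)d9lac), 73.3 (del(attP-Rel5)d9lac) and 9.26 (del(8-13)rXII). RAD21 was at 68.5, 17.6 and 11.6 in whole limb, distal forelimb and del(8-13)rXII, and SMC1 at 10.6, so all 11 lists had a peak there. The strongest consensus sites of the window were near the start of Nfkb2 (chr19:46304108-46304480, 118), in intron 6 of Sufu (chr19:46452496-46452891, 106) and in a coding exon of Nfkb2 (chr19:46309044-46309461, 81.5).

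The Gli genes encode the zinc-finger transcription factors of the pathway, Gli2 mainly an activator, Gli3 mainly a repressor in the limb, and Gli1 an activator that is itself a target. Gli1 and Gli2, like Sufu, had a CTCF site with a motif at their start, and Gli3 did not. The motifs of the 3 start sites are shown beside those of the 3 consensus sites of the Gli3 window, with the motif in capitals, read 5′ to 3′ on its own strand.
Sufu start, plus strand: tcctcCTAACACTAGGGGGAGGCCaagat
Gli1 start, minus strand: taggaCGACCAGCAGAGGGCGCGAaaagc
Gli2 start, minus strand: caagcTCAGCGCGCGGGGGCGCTGcgcca
Gli3 intron 12, minus strand: ctgtcTAGCCAGTAGATGGCAGGTccgag
Gli3 downstream, nearer, minus strand: gcatgTCGCCGCGCGGTGGCGGAAgcagc
Gli3 downstream, farther, minus strand: acttaTGAACACCAGGGGGCAATGtgtaa
Gli1 and Gli2 are transcribed from the minus strand, so at all 3 starts the motif read in the direction of the gene. At the 3 Gli3 sites the motif pointed against the direction of Gli3 transcription.

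Gli3 was the longest of the 8 genes, with a body of 266.8 kb (chr13:15463235-15730026, plus strand, 14 introns), and 252 kb of it downstream of the start held no consensus site. Its 1 consensus site inside the gene lay in intron 12 at chr13:15715191-15715500. Among 396 protein-coding genes within 20% of its length, the median number in the body was 4 (quartiles 2 and 6), and 60 genes, 15.2%, had at most 1. The Gli3 body held 2 whole-limb RAD21 peaks, where the median of these genes was 3. Among the genes with the most similar body counts over the 11 lists were Phlpp1, Shisa9 and Angpt1, with summed absolute differences of 2, 2 and 3 peaks. In all 7 genes had a difference of at most 3, so Angpt1 is one of several tied.

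The intron 12 site had a peak in all 11 lists. Its CTCF −log10 q was 19.3 in whole limb, 79.9 in distal and 94.8 in proximal forelimb, which put it at percentiles 53.4, 73.4 and 78.7 of those lists. In the alleles it was 118 (del(8-13)d11lac), 36.5 (del(1-13)d9lac), 33.4 (del(attP-Rel5)d9lac) and 13.1 (del(8-13)rXII), at percentiles from 61.0 to 80.7. RAD21 was at 34.4 in whole limb, 7.53 in distal forelimb and 11.9 in del(8-13)rXII, and SMC1 at 16.2. In whole-limb CTCF it was thus a site of middle strength.

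The other consensus sites of the window stood 29.1 and 33.0 kb past the 3′ end of Gli3, in the intergenic stretch towards Inhba, and both were also in all 11 lists. The nearer, chr13:15759119-15759499, was at 92.1 in whole-limb CTCF, 201.7 in distal forelimb and 201.6 in proximal forelimb. It ranked at percentile 95.8 in whole-limb CTCF and from 87.1 to 92.3 in the alleles. Its cohesin ranks were percentile 99.4 in whole-limb RAD21, 98.9 in distal RAD21, 99.6 in del(8-13)rXII RAD21 and 92.2 in SMC1, so it ranked high in each cohesin list. The farther, chr13:15763057-15763356, was at 16.1, 75.4 and 78.6 in the 3 wild-type CTCF lists and ranked at percentile 87.5 in whole-limb RAD21.

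The 5′ part of Gli3 and its start held only peaks of a few lists. An intron 3 CTCF peak (chr13:15556603-15556938) was at 4.45 in distal forelimb, 5.81 in proximal forelimb and 11.4 in del(8-13)d11lac. A whole-limb RAD21 peak in intron 1 (chr13:15464212-15464547, 6.84), 424 bp past the start of the principal transcript, overlapped no CTCF peak in any list. Upstream of the start, a peak of proximal forelimb alone stood at chr13:15461838-15462135 (6.53) and a weaker one, shared with del(8-13)d11lac, at chr13:15459625-15459964 (3.32 and 4.37). At chr13:15368082-15368354, 95.08 kb upstream, whole-limb RAD21 (7.749), SMC1 (4.23) and CTCF of del(8-13)rXII (17.2, percentile 87.9 of that list) had a peak where no other CTCF list did. A RAD21 peak of whole limb at chr13:15395133-15395425 (7.37) was also without CTCF.

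From the consensus site 133 kb upstream of Gli3 to the intron 12 site there were 385 kb without a consensus site, a gap that 937 of 39456 gaps, 2.37%, matched or exceeded. This too is a share of the number of gaps, and a position of the genome falls in a gap this long more often. The nearest motif pair facing each gene was then sought among sites with whole-limb RAD21 whose peaks lay wholly outside the gene body. It had a plus-strand motif on the left and a minus-strand motif on the right. Spans ran from 107 kb around Smo to 1089 kb around Gli3. The start sites of Sufu and Gli2 touch the body and were left out, though their motifs also face the gene with RAD21. The nearest facing motifs of these genes are therefore closer than the spans given here. The Gli3 pair was uneven, with the left site 792 kb from the gene and the right site, the nearer downstream one, 29.1 kb from it. The spans were 165 kb for Gli1, 199 kb for Sufu, 314 kb for Gli2, 542 kb for Hand2, 749 kb for Hhip and 883 kb for Ptch1. Such a pair is a description of motif positions, and contacts were not measured in these lists.

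**Figure D4:**
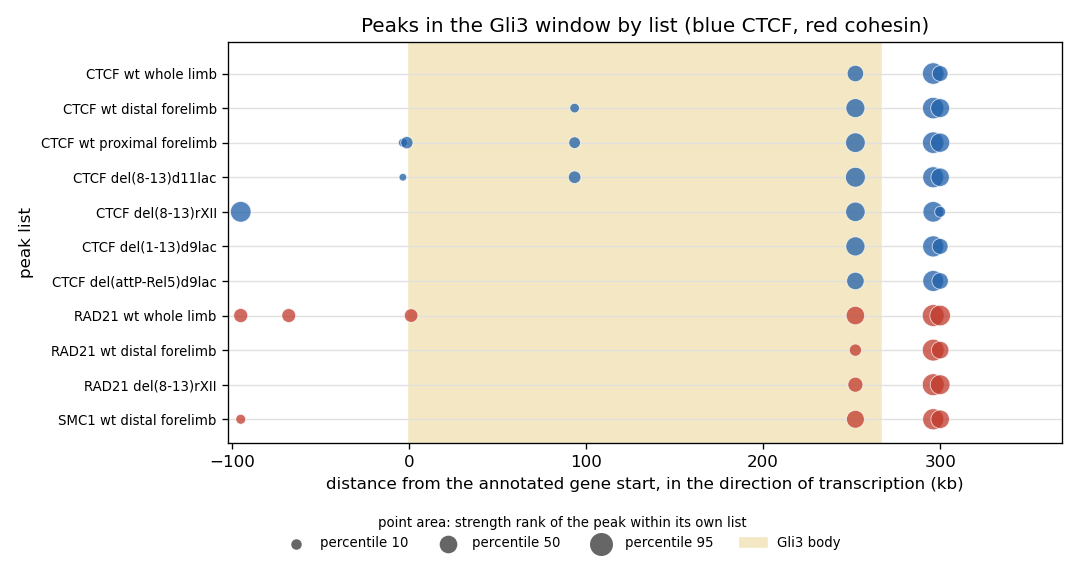
Peaks of the Gli3 window by list (rows), placed by the distance of the summit from the annotated gene start in kb; the shaded band is the gene body and point area gives the percentile of the peak within its own list. All 11 lists have points 252, 296 and 299.96 kb from the start, and all other points come from at most 3 lists at a place.

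Gli1, which is often used as a readout of Hedgehog activity, lies in a gene-dense region and had 8 consensus sites, 3 of them touching its body of 12.1 kb. The site nearest to its start (chr10:127342311-127342658, summit 523 bp upstream) was at 47.0 in whole limb, 154 in distal and 149 in proximal forelimb. In the alleles it was at 139 (del(8-13)d11lac), 50.9 (del(1-13)d9lac), 48.0 (del(attP-Rel5)d9lac) and 11.2 (del(8-13)rXII). RAD21 was at 15.5 in whole limb and 3.13 in distal forelimb and was not called in del(8-13)rXII, and SMC1 was at 8.91. CTCF was therefore strong at this start while cohesin was near or below the middle of its lists, at percentiles from 3.62 to 52.8. The strongest CTCF sites of the window were in a coding exon of Inhbe (chr10:127350592-127351048, 87.6), between genes at chr10:127312291-127312707 (78.1) and in intron 2 of Gli1 (chr10:127338853-127339201, 74.9). The intergenic one had no RAD21 peak in any list and an SMC1 peak at 7.76. Of the 8 sites 3 had whole-limb RAD21, and 1 had all 4 cohesin lists.

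Gli2 had 13 consensus sites in a window of 419 kb without another protein-coding gene, and only 3 of them touched its body of 219 kb (chr1:118834132-119053619, minus strand). Its start site (chr1:119053533-119053937, summit 90 bp upstream) was at 68.2 in whole limb, 153 in distal and 212 in proximal forelimb. The alleles were at 121 (del(8-13)d11lac), 55.9 (del(1-13)d9lac), 61.9 (del(attP-Rel5)d9lac) and 8.27 (del(8-13)rXII). RAD21 was at 48.8, 4.87 and 6.84 in whole limb, distal forelimb and del(8-13)rXII and SMC1 at 9.53. The other 2 sites of the body, in introns 1 and 2, had no cohesin peak and no motif. The strongest sites outside were 40.3 kb (chr1:119093737-119094108, 77.8, with whole-limb RAD21 at 122) and 34.1 kb (chr1:119087568-119087903, 41.5) upstream of the start. Of the 13 sites, 7 had a peak in all 4 cohesin lists.

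Hand2, a basic helix-loop-helix factor that acts upstream of Sonic hedgehog in the posterior limb bud, had no peak in its body of 3.65 kb (chr8:57320983-57324633, plus strand) and none within 1 kb of its start in any list. Of its 4 consensus sites the nearest, 6.54 kb upstream in an exon of the antisense transcript Hand2os1 (chr8:57314275-57314672), was in all 7 CTCF lists and in no cohesin list. It was at 31.4 in whole limb, 155 in distal and 135 in proximal forelimb, and at 107 in del(8-13)d11lac, 45.8 in del(1-13)d9lac, 37.4 in del(attP-Rel5)d9lac and 13.0 in del(8-13)rXII. No motif passed the threshold. The site at chr8:57353625-57354035, 32.8 kb downstream, was at 33.7 in whole-limb CTCF and was the one consensus site of the window with cohesin: RAD21 at 26.7 in whole limb and 13.5 in del(8-13)rXII, and SMC1 at 11.7. Its motif, on the plus strand, is shown because no other consensus site of the window had cohesin.
Hand2 downstream, plus strand: tctttAAAAAGCCAGATGGCGCCAtctct
The remaining pair, at chr8:57341808-57342056 (11.7) and chr8:57327930-57328121 (4.86), had no cohesin in any list. A further place that is not a consensus site, chr8:57333249-57333721, had whole-limb RAD21 at 4.78 and CTCF in 5 lists.

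Over the 8 windows a whole-limb CTCF peak lay within 1 kb of the start of 5 genes, Gli1, Gli2, Sufu, Ptch1 and Hhip, where 18% of all protein-coding genes had one. The count was 5 in distal forelimb (25.4% of all genes), 4 in proximal forelimb (25.7%), 5 in del(8-13)d11lac (25.1%), 4 in del(1-13)d9lac (17.7%), 4 in del(attP-Rel5)d9lac (18.6%) and 3 in del(8-13)rXII (13.2%). RAD21 was at 5 starts in whole limb (14.9%), 3 in distal forelimb (5.75%) and 2 in del(8-13)rXII (4.85%), and SMC1 at 4 (10.1%). With 8 genes the Wilson 95% interval of 5 starts ran from 30.6% to 86.3%. These intervals, here and below, cover counting error only. The whole-limb RAD21 start peaks were at Gli1, Gli2, Sufu and Hhip, with CTCF, and at Gli3, without it. In all these counts the start was the outermost annotated one. At that of Ptch1 the whole-limb CTCF peak was weak (3.18, percentile 7.73), and none was called within 1 kb of its principal transcript start.

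Distal and proximal forelimb shared most of their CTCF peaks in the windows. Of 96 distal peaks 85 overlapped a proximal one, 88.5% (interval 80.6 to 93.5), against 82.6% of all distal peaks. Of 107 proximal peaks 86 overlapped a distal one, 80.4% (71.9 to 86.8), against 77.8%. The peaks found in 1 forelimb part and in neither of the other 2 wild-type CTCF lists numbered 10 of 96 in distal and 21 of 107 in proximal, 10.4% and 19.6%, where the whole lists had 16.6% and 21.4%. They were weak: the strongest distal one was in an intron of Ahcyl2 near Smo (chr6:29800463-29800693, 8.90, percentile 29.5) and the strongest proximal one downstream of Hand2 (chr8:57357084-57357336, 10.4, percentile 37.3). Hand2 had 5 of this kind among 13 proximal peaks and 0 among 8 distal ones. In the same order, proximal then distal, Gli1 had 3 and 1, Gli2 0 and 2, Gli3 2 and 0, and Ptch1 4 and 2. Smo had 3 and 2, Sufu 2 and 0, and Hhip 2 and 3. The strongest one around Hand2 also overlapped peaks of del(8-13)d11lac and del(1-13)d9lac.

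Most consensus sites of the windows were also called in the 4 HoxD alleles. A CTCF peak was found at 59 of 59 sites in del(8-13)d11lac (100%, interval 93.9 to 100), where 98.7% of all consensus sites of the genome had one. It was found at 56 in del(1-13)d9lac (94.9%, 86.1 to 98.3, genome 87.2%), 52 in del(attP-Rel5)d9lac (88.1%, 77.5 to 94.1, genome 90.4%) and 49 in del(8-13)rXII (83.1%, 71.5 to 90.5, genome 77%). Each of these 4 genome shares lies inside the interval of the windows. The sites without an allele peak were weak in whole limb. All 44 sites at or above a −log10 q of 10 had a peak in all 4 alleles, and the missing calls fell among the 15 sites under 10, of which del(8-13)d11lac called 15, del(1-13)d9lac 12, del(attP-Rel5)d9lac 8 and del(8-13)rXII 5. For all genome sites under 10 the shares called were 95.8%, 61.4%, 69.9% and 39.8% in the same order. For genome sites from 10 to 50 they were 99.8%, 97.0%, 98.4% and 89.3%. At 50 or over they were 99.96%, 99.95%, 99.95% and 99.7%, so most stronger sites of the genome were called as well.

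The del(8-13)rXII share moved in opposite directions under 2 other settings. With a −log10 q of at least 10 asked of each list it was 58.1% (25 of 43 sites). With all CTCF lists cut to the 36116 strongest peaks of the shortest list it was 97.9% (46 of 47). The consensus sites were counted anew at each setting. The genome shares at these settings were not counted, so nothing is read from the shift about the windows. The median −log10 q of that list was 7.07, against 17.0 in wild-type whole limb.

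**Figure D5:**
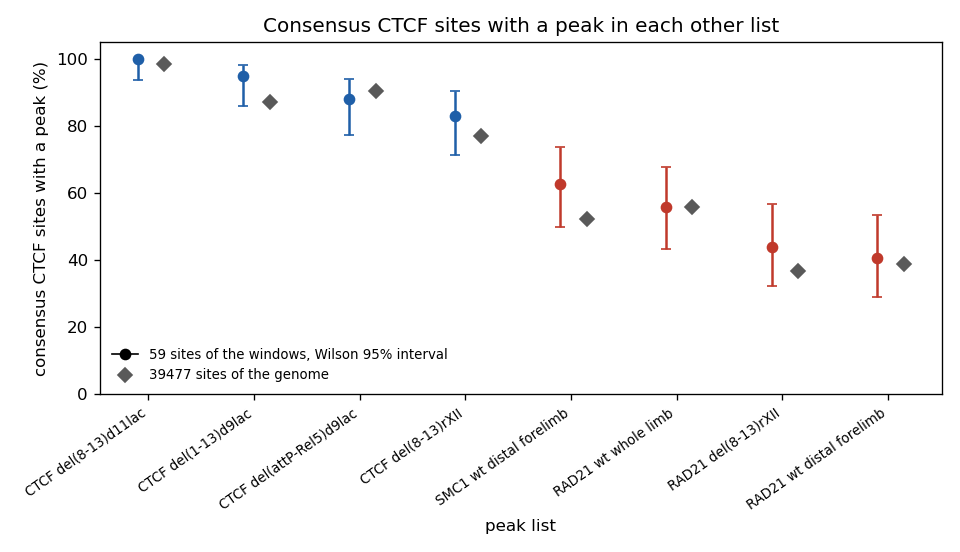
Share of the 59 consensus CTCF sites of the windows with a peak in each other list, in percent, with Wilson 95% intervals (circles; blue CTCF of the alleles, red cohesin), beside the share of the 39477 sites of the genome (grey diamonds). The genome value lies within the interval in each of the 8 lists, from 98.7% against 100% in del(8-13)d11lac to 39% against 40.7% in distal RAD21.

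CTCF peaks without any wild-type CTCF peak were few in the windows. They numbered 9 of 103 in del(8-13)d11lac (8.74%, list 7.08%), 2 of 67 in del(1-13)d9lac (2.99%, list 5.19%), 1 of 60 in del(attP-Rel5)d9lac (1.67%, list 2.94%) and 3 of 59 in del(8-13)rXII (5.08%, list 4.62%). By rank within its list the highest was the del(8-13)rXII peak 95.08 kb upstream of Gli3, at percentile 87.9, and all the others were below percentile 21. A place upstream of Hhip (chr8:80137098-80137393) was new in del(8-13)d11lac (6.90) and del(8-13)rXII (2.54) and also had whole-limb RAD21 (2.60).

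Cohesin overlapped the consensus sites about as often in the windows as elsewhere. Whole-limb RAD21 was at 33 of 59 sites (55.9%, interval 43.3 to 67.8), as against 55.9% in the genome. Distal RAD21 was at 24 (40.7%, 29.1 to 53.4, genome 39%), SMC1 at 37 (62.7%, 49.95 to 73.9, genome 52.4%) and del(8-13)rXII RAD21 at 26 (44.1%, 32.2 to 56.7, genome 36.8%). All 4 cohesin lists had a peak at 22 sites (37.3%, genome 30.8%) and none did at 21 (35.6%, genome 36.7%). Strong CTCF sites carried cohesin more often, with whole-limb RAD21 at 2 of 15 sites under a −log10 q of 10, 16 of 28 from 10 to 50 and 15 of 16 at 50 or over. In the genome these shares were 21.9%, 61.1% and 90.7%.

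Of the 44 whole-limb RAD21 peaks in the windows 26 overlapped one of del(8-13)rXII (59.1%, interval 44.4 to 72.3), against 45.2% of all whole-limb RAD21 peaks. With the 3 RAD21 lists and SMC1 each cut to the strongest 15927 peaks, the share in the windows was 92.9% (26 of 28). All 25 distal RAD21 peaks overlapped a whole-limb one (list 96.5%) and all 25 an SMC1 peak (list 87.9%), while 25 of 41 SMC1 peaks overlapped distal RAD21 (list 62.5%). Without whole-limb CTCF stood 11 of 44 whole-limb RAD21 peaks (25.0%, interval 14.6 to 39.4), where the list had 33.6%. In the windows this count fell to 0 of 30 when a −log10 q of at least 10 was asked. It fell to 0 of 28 when lists were cut to equal length. Whole-list shares at these settings were not counted, and the 45.2% and 33.6% hold for the uncut lists only. The 9 without CTCF in any wild-type list (list 23.7%) were 3 around Gli3, 3 around Gli2, 2 around Ptch1 and 1 around Hhip, with −log10 q from 1.58 to 7.749. The strongest 3 were those around Gli3, and those of Gli2 stood 6.39 kb upstream (3.14), 0.941 kb inside (2.50) and 71.0 kb inside the gene (2.32).

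A CTCF motif passed the threshold at 51 of the 59 sites (86.4%, interval 75.5 to 93.0), against 84.6% in the genome, and was on the plus strand at 20 of the 51 (39.2%, 27.03 to 52.9), against 50.1%. The 8 sites without one were 2 each around Gli2 and Hand2 and 1 each around Ptch1, Smo, Sufu and Hhip.

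A list of 28 other Hedgehog pathway genes, from ligands to kinases and ciliary proteins, was counted the same way. Their windows had a median of 2.78 consensus sites per 100 kb, from 1.09 around Fbxl17, an F-box protein gene, to 7.31 around Scube3, whose product is a secreted helper of ligand release. Of the 28 genes 15 were above the median of all genes. Sites were summed over the windows, so a site shared by windows counts once in each. Whole-limb RAD21 was at 146 of the 261 sites so counted (55.9%, genome 55.9%) and CTCF of del(8-13)rXII at 210 (80.5%, genome 77%), shares near those of all consensus sites. Shh, the ligand gene of the limb, had 4 sites (1.90 per 100 kb), 3 of them with RAD21. A whole-limb RAD21 peak lay within 1 kb of the start of 7 of the 28, where 14.9% of all genes had one: Boc, Gas1, Disp1, Btrc, Evc2, Ift88 and Gnas.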

How the data were processed

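The 11 deposited narrowPeak files, 1 per sample, were used; the 2 H3K27ac samples were not analysed here. Per the submitters' processing notes the authors used cutadapt, Bowtie2, MACS2 and build mm10, with no versions. In the deposited files the authors' score is 10 times the −log10 q as a whole number, the fold enrichment is a ratio over local background, and the −log10 p and −log10 q are those of the summit, whose offset is also deposited. The lowest −log10 q of each list was at the level of a q of 0.05. Regions listed with several summits were merged to the strongest one (8888 in CTCF of del(8-13)rXII, from 129 to 1229 in the others). Chromosomes 1 to 19, X and Y were kept, and no peak reached beyond its chromosome. Coordinates are 1-based.

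Peaks were shared at 1 bp of overlap. Python 3.11.15, pandas 2.3.3, numpy 2.4.6, pysam 0.24.0 and matplotlib 3.10.9 were used. A 19 bp CTCF motif matrix was learned from the 2000 strongest whole-limb summits, on both strands of GRCm38.p6. A motif was called where the highest score up to 50 bp from the summit exceeded 5.69 bits, passed by 5% of control windows 2 kb away; the overlap and motif code were tested on simulated data. A motif's strand is that on which its G-rich form reads.

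The 8 genes, the 28 other pathway genes and the site rule were chosen with earlier results of these data known. Named were all consensus sites in Gli3 and Ptch1, elsewhere the 3 strongest in whole limb and the one nearest the start, any site with a −log10 q of at least 20 lacking an allele peak (there was none), the strongest peak of 1 forelimb part alone, the 2 strongest RAD21 peaks without wild-type CTCF, and the 3 genes most like Gli3 and Ptch1 in body counts. The weak peaks of the Ptch1, Gli3 and Hhip bodies, the new place near Hhip and the repeat in Smo were named after their values were seen. Alternatives were a −log10 q of at least 10, 50% overlap, summits within 200 bp, flanks of 50 or 200 kb or none, lists of equal length and a wider motif search.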

Additional observations from a re-analysis of the deposited data

How the results depend on the processing

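No paired analysis was possible because each group had 1 library. Over the alternatives, 73 of 92 values over all windows stayed within their interval (counts within 1.5 times), and 17 of 32 counts of single windows did. The cause of the shifts was not tested, beyond fewer peaks or shorter windows being counted. Shares over the whole genome were not counted at these alternatives. With a −log10 q of at least 10, CTCF of del(8-13)rXII was at 58.1% of sites, CTCF of del(attP-Rel5)d9lac at 97.7%, whole-limb RAD21 at 69.8% and a motif at 95.3%, RAD21 without CTCF was 0, and 93.9% of proximal CTCF peaks had a distal one; Ptch1 and Hhip then had 0 consensus sites and Hand2 2. With lists of equal length (36116 CTCF and 15927 cohesin peaks) CTCF of del(8-13)rXII and of del(attP-Rel5)d9lac were each at 97.9% of sites, RAD21 of del(8-13)rXII at 92.9% of whole-limb RAD21 peaks, and a motif at 93.6%. RAD21 without CTCF was 0, 96.0% of distal CTCF peaks had a proximal one and 90.6% of proximal a distal one. With 50% overlap SMC1 was at 47.5% of sites. With 50 kb flanks 87.0% of proximal peaks had a distal one, and Smo had 4 and Sufu 11 consensus sites. With 200 kb flanks there were 94 consensus sites (20 around Gli1, 11 around Ptch1 and 8 around Hand2). In gene bodies alone there were 16, a motif was at 68.8%, and 100% of proximal peaks had a distal one. Leaving out the Smo intron 1 repeat, an alternative chosen after seeing the data, moved none of the 9 values recomputed, with whole-limb RAD21 at 55.2% of 58 sites. Depth is unknown, so a site missing from a list was not called there, and whether it was bound was not tested.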

Other observations

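The shared word beside Ptch1 was searched for at all consensus sites after these sequences had been seen, so the values below are a description. Its 24 bases (the 19 of the motif and the 5 that follow) were matched with at most 4 mismatches by 5 of the 51 motifs in the windows: both downstream Ptch1 sites, the Gli1 intron 12 site at chr10:127332138-127332392 and a pair of sites in introns of Actr1a before the Sufu start. All 5 motifs are marked as repeat in the reference, their median whole-limb −log10 q was 8.62, and none had a whole-limb RAD21 or SMC1 peak. Copies of the B2 family of mouse short interspersed repeats are known to carry CTCF motifs; the class of these repeats was not looked up here. In the genome 3451 of 33406 motifs (10.3%) matched the word, 97.4% of them marked as repeat. Whole-limb RAD21 was at 21.4% of the matching sites and at 64.0% of the other 29955. Among sites with a −log10 q from 5 to 20 alone, a range chosen after seeing the data, RAD21 was at 13.6% of 2108 matching sites and 39.8% of 10315 others. SMC1 was at 29.6% of all matching sites and 60.6% of the others, and in that range at 20.0% and 32.0%. The part of CTCF strength in these differences was not tested.

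Some sites ranked differently in the CTCF and the cohesin lists, which also differ in length. At Gli2, a site 30.2 kb upstream of the start (chr1:119083710-119083971) was at percentile 41.7 in whole-limb CTCF and 89.2 in whole-limb RAD21. The reverse held at chr10:127312291-127312707 near Gli1, at percentile 92.6 in CTCF with no RAD21 peak in any list. The site 6.54 kb upstream of Hand2 stood at percentiles from 64.4 to 88.8 in the 7 CTCF lists, without cohesin in any list.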
